A study of Mus musculus with 6 samples.

Results

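Lung endothelial subtype marker genes are 33 genes whose transcripts mark the kinds of endothelial cells (ECs) found in the lung. They were listed by symbol: 4 arterial, 1 venous, 4 general capillary, 8 aerocyte, 7 lymphatic and 9 shared by ECs of most vessels. Each gene was read from the brightest probe set that the platform annotation gave to that symbol alone, which left 31 of the 33 genes among 18193 genes measured in this way. Prx had no probe set in the annotation used, and Ccl21a was covered only by a probe set annotated to several genes.

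All 6 samples were ECs sorted from lungs of NSG mice, an immunodeficient strain without mature lymphocytes, that carried lung metastases of MDA-MB-231-LM2, a highly lung-metastatic derivative of a human breast cancer line injected intravenously. The mice were 6 to 8 weeks old per the series' design text and female per the study's methods. Of the samples, 3 came from mice given control PBS-liposomes and 3 from mice given clodronate-liposomes, which kill phagocytes that engulf them and were used to deplete macrophages, and the comparison asks how lung ECs differ once macrophages have been targeted. Liposomes were injected on days 14, 16 and 18 after the cancer cells and lungs were taken on day 20, which the labels call 3 weeks. The sort took CD31-positive cells after removing cells positive for CD45, CD11b, CD326, CD140a, CD140b or the GFP of the cancer cells. The labels call the replicates biological without stating the number of mice in each, and 1 ng of RNA per sample was amplified and hybridized to 1 array.

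Blood enters the lung through arteries, passes a dense capillary bed and leaves through veins, and lymphatic vessels drain the tissue between them. The capillary bed holds a pair of EC types, general capillary cells, which can divide and renew the bed, and aerocytes, large cells that lie against alveolar type 1 cells and serve gas exchange. Each type keeps a set of preferentially expressed genes, so the levels of these genes in sorted ECs depend both on how many cells of each type were collected and on how much of each transcript a cell holds. In these bulk samples, fewer cells of a type and less RNA per cell cannot be told apart.

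All 31 measured markers lay above the level of olfactory receptor genes, which are rarely transcribed outside the nose and served as a background, with a 95th percentile of 7.39 on the log2 scale. Pecam1, which encodes the CD31 used in the sort, lay between 13.50 and 13.70 on all arrays, and Cdh5, the VE-cadherin of endothelial junctions, between 13.25 and 13.58. Pairs of control arrays correlated over all probe sets at 0.989 to 0.991, pairs of treated arrays at 0.986 to 0.990 and mixed pairs at 0.985 to 0.988. Among markers of cells that the gate should remove, 5 of the 11 measured macrophage genes, Adgre1, C1qa, C1qb, C1qc and Cd163, lay at or under background on average, and the other 6, Lyz2, Mrc1, Cd68, Csf1r, Marco and Folr2, lay above it. The summed macrophage signal overlapped between groups, at 11.95 to 12.45 in PBS-liposome samples and 11.82 to 12.27 after clodronate. Lyz2, the brightest of these genes at a mean of 10.76, weighed most in this sum and differed by -0.026. Of the 11 genes, 10 had differences below zero and 1 above. Without overlap, 3 were lower, where 16.0% of all probe sets did not overlap. These were Csf1r at -0.65 (SE 0.12, adjusted p = 0.101), Cd68 at -0.075 and C1qc at -0.25. Of 8 leukocyte genes, Cd52 and Itgam lay at or under background. All 8 had differences below zero, with a median of -0.34, and 4 were lower without overlap, beside the same 16.0%. The summed leukocyte signal was lower after clodronate, at 10.70 to 10.99 on the log2 scale against 11.03 to 11.43. Of its 8 genes, 0 passed the threshold. All 7 fibroblast genes lay above background, with Col1a2 at a mean of 11.74. Their summed signal overlapped between groups, at 13.23 to 13.40 in PBS-liposome samples and 12.74 to 13.54 after clodronate. Sftpc, a marker of alveolar type 2 cells, ran from 8.49 to 12.78 among the clodronate-liposome samples. The part of any such cells in the differences given here was not tested.

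None of the 31 markers passed the threshold between clodronate-liposome and PBS-liposome samples (limma, Benjamini-Hochberg adjusted over 45037 probe sets, threshold 0.05). No marker was called lower, where 0.238% of all probe sets were called lower, and none higher, where 0.0688% were called higher, so that 0 of 31 stand beside 0.306% called in either direction. The lowest adjusted p of any marker was 0.267. At an unadjusted p under 0.05 there were 5 of 31 (16.1%), against 10.8% of all probe sets. All 31 markers lay above the median signal of 8.12. Fitted alone, the 22518 probe sets above that level held 3299 with such a p (limma). The 2 groups did not overlap for 8 of 31 (25.8%), against 16.0% of all probe sets, with Gja4, Ednrb, Emp2 and Chst1 lower and Sema3c, Mmrn1, Reln and Calcrl higher after clodronate.

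The differences, always clodronate-liposome minus PBS-liposome on the log2 scale, ran from -0.40 for Chst1 to 0.47 for Mmrn1, with 14 below zero, 17 above and a median of 0.026 beside -0.00014 over all probe sets. The median size of a marker's difference was 0.0788, against 0.111 over all probe sets and 0.124 over those above the median signal. The median standard error was 0.110 against 0.123 over all probe sets. For 25 of the 31 markers the 95% confidence interval lay within 0.5 log2 units of zero on either side. The exceptions were Bmx, Slc6a2, Emp2, Chst1, Mmrn1 and Reln. The smallest difference called anywhere on the array had a size of 0.64, which none of the 31 reached on its brightest probe set. Dimmer probe sets of Slc6a2 and Ednrb, at -0.78 and -0.65, exceeded that size without passing the threshold.

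**Figure D1:**
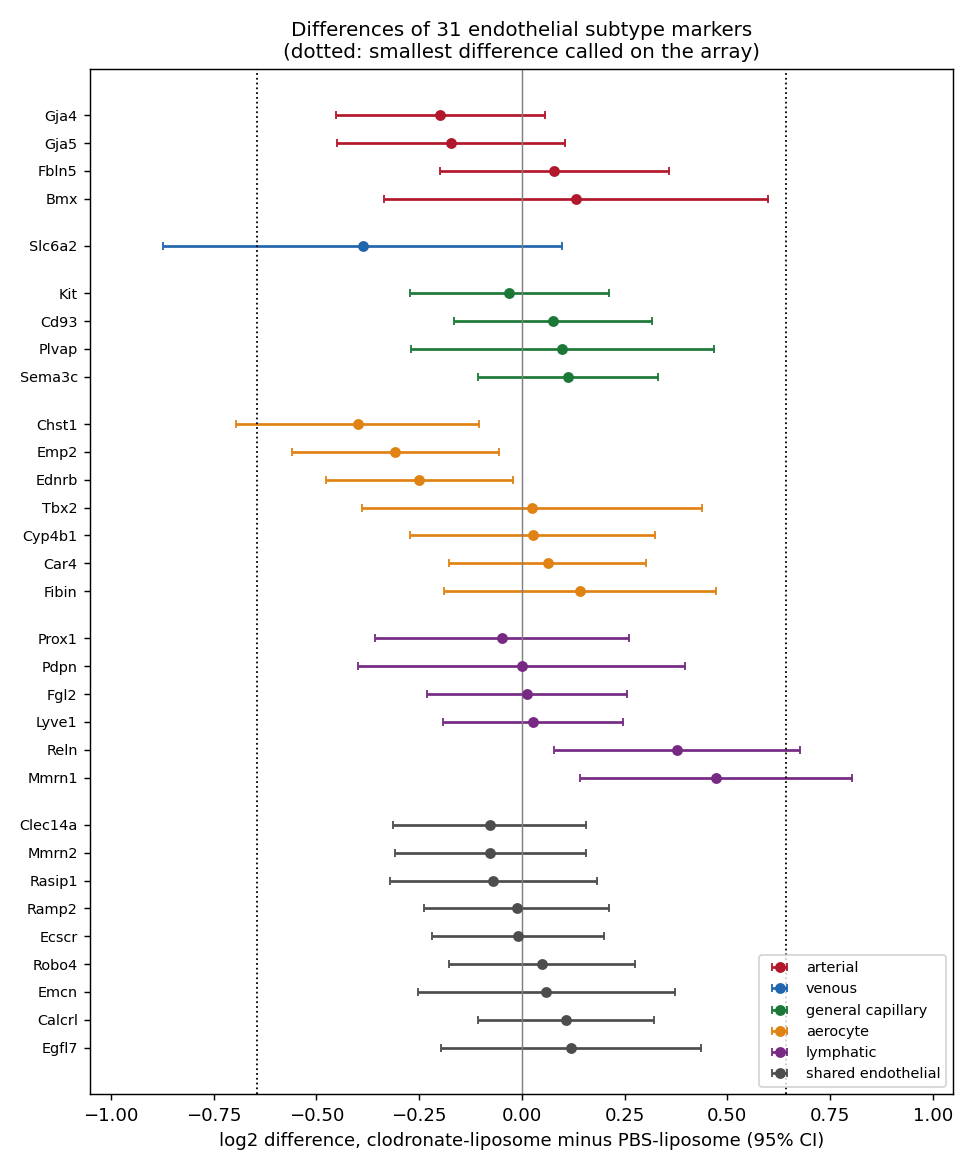
Log2 difference of each of 31 markers (x axis, clodronate-liposome minus PBS-liposome, 3 arrays each), with points for limma estimates, bars for 95% confidence intervals, colours for the subtype list and dotted lines at the smallest size called on the array, 0.64. All points lie inside the dotted lines, and the intervals of Chst1, Emp2, Ednrb, Reln and Mmrn1 leave out zero before adjustment.

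Arterial markers divided by gene, with Gja4 and Gja5 at negative values, Fbln5 and Bmx at positive ones and a list median of -0.047. Gja4, which encodes a connexin of endothelial gap junctions, had log2 signals of 12.52, 12.56 and 12.49 in the PBS-liposome samples and 12.33, 12.16 and 12.49 in the clodronate-liposome samples. The groups did not overlap, but the highest treated sample nearly met the lowest control, and the difference was -0.20 (SE 0.11, adjusted p = 0.586). Gja5, encoding the connexin that most sharply marks arteries, had 11.09, 10.74 and 11.01 against 10.68, 10.77 and 10.88. Its groups overlapped at the low PBS-liposome sample, with a difference of -0.17 (SE 0.12, adjusted p = 0.686).

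Fbln5 encodes fibulin 5, an elastic fibre protein, and had 12.17, 12.14 and 12.50 in PBS-liposome samples against 12.30, 12.40 and 12.34 after clodronate. The clodronate-liposome values all fell between the lower and the upper PBS-liposome values, and the difference was 0.079 (SE 0.12, adjusted p = 0.881). Bmx, a cytoplasmic tyrosine kinase found in arterial endothelium, gave a difference of 0.13 with an interval from -0.33 to 0.60, the widest of the arterial list.

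Slc6a2, the noradrenaline transporter and the sole venous marker of the 33, had 12.07, 12.12 and 11.61 in PBS-liposome samples and 11.90, 11.15 and 11.60 in clodronate-liposome samples. The groups overlapped, since the first clodronate-liposome sample lay above the third PBS-liposome sample, and the difference was -0.39 (SE 0.21, adjusted p = 0.574). Its interval ran from -0.87 to 0.10, the widest of all 31 markers. The estimate leaned on the second clodronate-liposome sample, without which it was -0.19. All 4 Slc6a2 probe sets had negative differences, the other 3 giving -0.57, -0.78 and -0.23, and on the one with -0.78 (adjusted p = 0.274) the groups did not overlap.

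General capillary markers differed little, with a list median of 0.087, a range from -0.030 to 0.11 and all 4 intervals within 0.5 of zero. Sema3c, a secreted semaphorin that guides axons and vessels, had 13.21, 13.38 and 13.34 against 13.47, 13.40 and 13.39. The groups did not overlap, though the gap between them was narrow, and the difference was 0.11 (SE 0.095, adjusted p = 0.753). Cd93, a transmembrane glycoprotein of endothelial adhesion, differed by 0.076 (SE 0.10) and Plvap, which forms the diaphragms of endothelial fenestrae and caveolae, by 0.098 (SE 0.16). Plvap spread widely after clodronate, from 12.36 in the second sample to 12.93 in the first. Kit, the stem cell factor receptor, which mast cells express too, differed by -0.030, and of 6 mast cell genes Cpa3, Mcpt4, Tpsb2 and Ms4a2 lay at or under background, while Hdc and Cma1 lay above it at means of 9.62 and 7.56.

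Aerocyte markers divided into 3 with negative values, Chst1, Emp2 and Ednrb, and 4 with small positive ones. Chst1, a sulfotransferase acting on keratan and related glycans, had 12.15, 12.08 and 11.91 in PBS-liposome samples and 11.44, 11.83 and 11.66 in clodronate-liposome samples. Each clodronate-liposome sample was below each PBS-liposome sample. The difference was -0.40 (SE 0.13, adjusted p = 0.299), with an interval from -0.70 to -0.10.

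Emp2, a tetraspan membrane protein abundant in the alveolar wall, had 13.03, 12.95 and 12.80 against 12.63, 12.50 and 12.73. The groups did not overlap, the nearest pair being the third samples of each, and the difference was -0.31 (SE 0.11, adjusted p = 0.351). Alveolar type 1 cells express Emp2 as well. Of 7 markers of those cells 5 lay above background, with Rtkn2 and Akap5 at or under it, and their summed log2 signal ran from 12.42 to 12.88 in PBS-liposome samples and from 12.24 to 12.94 in clodronate-liposome samples. Most of this sum came from Hopx, at a mean of 12.19, with Ager next at 9.12. Ager, the receptor by which type 1 cells are best known, differed by 0.058 (SE 0.13), and no marker of that list passed.

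Ednrb, the endothelin B receptor and one of the genes by which aerocytes are usually recognized, had 12.62, 12.49 and 12.43 against 12.32, 12.19 and 12.28. Each clodronate-liposome sample was again lower, with a difference of -0.25 (SE 0.098, adjusted p = 0.412). Car4, the membrane carbonic anhydrase that is the usual companion marker of Ednrb in these cells, differed by 0.063, with an interval from -0.18 to 0.30. Tbx2, a T-box transcription factor, differed by 0.026, Cyp4b1, a cytochrome P450 also made by airway club cells, by 0.027, and Fibin, a secreted protein, by 0.14. Scgb1a1, the secretoglobin of club cells, ran from 7.53 to 11.28 without order by group. Over the 7 measured genes the list median was 0.026, with 3 differences below zero and 4 above.

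Lymphatic markers held the most positive values, in Mmrn1 and Reln. Mmrn1, the adhesive protein multimerin 1 of lymphatic ECs and platelets, had 10.35, 10.42 and 10.83 in PBS-liposome samples and 10.95, 11.12 and 10.94 in clodronate-liposome samples. The groups did not overlap, but the third PBS-liposome sample lay close to the treated ones. The difference was 0.47 (SE 0.14, adjusted p = 0.267), with an interval from 0.14 to 0.80.

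Reln, the secreted glycoprotein reelin, had 10.11, 10.04 and 10.41 against 10.45, 10.71 and 10.53. The third PBS-liposome sample again came nearest to the treated group, and the difference was 0.38 (SE 0.13, adjusted p = 0.331). Prox1, the transcription factor that specifies lymphatic identity, had 9.51, 9.25 and 9.68 against 9.50, 9.50 and 9.29. Its groups overlapped, with a difference of -0.048 (SE 0.13, adjusted p = 0.943).

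Differences of the other lymphatic markers were near zero, at 0.027 for Lyve1, a hyaluronan receptor, at -0.00067 for Pdpn, the membrane mucin podoplanin, and at 0.012 for Fgl2, a fibrinogen-like secreted protein. The list median was 0.020. Lyve1 was far brighter than the rest of its list, with a mean signal of 13.33. The other measured genes of the list had means from 8.42 (Pdpn) to 11.04 (Fgl2). Which cells gave the Lyve1 signal was not tested. Mean deviations of the 6 lymphatic genes from their own averages were -0.10, -0.18 and 0.072 in PBS-liposome samples and 0.032, 0.14 and 0.039 in clodronate-liposome samples, so the list overlapped between groups at the third PBS-liposome sample. Platelets share Mmrn1, and the 6 platelet markers, all above background, gave summed log2 signals of 11.54 to 11.78 in PBS-liposome samples and 11.15 to 11.75 after clodronate. Of their differences 5 were below zero and 1, Pf4 at 0.13, above, with a median of -0.18. Without overlap, 2 were lower, Itga2b at -0.56 and Ppbp at -0.44, where 16.0% of all probe sets did not overlap. Mesothelial cells share Pdpn, and their summed signal was 11.62 in the third clodronate-liposome sample against 9.91 to 10.44 elsewhere, where Pdpn itself did not stand out.

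**Figure D2:**
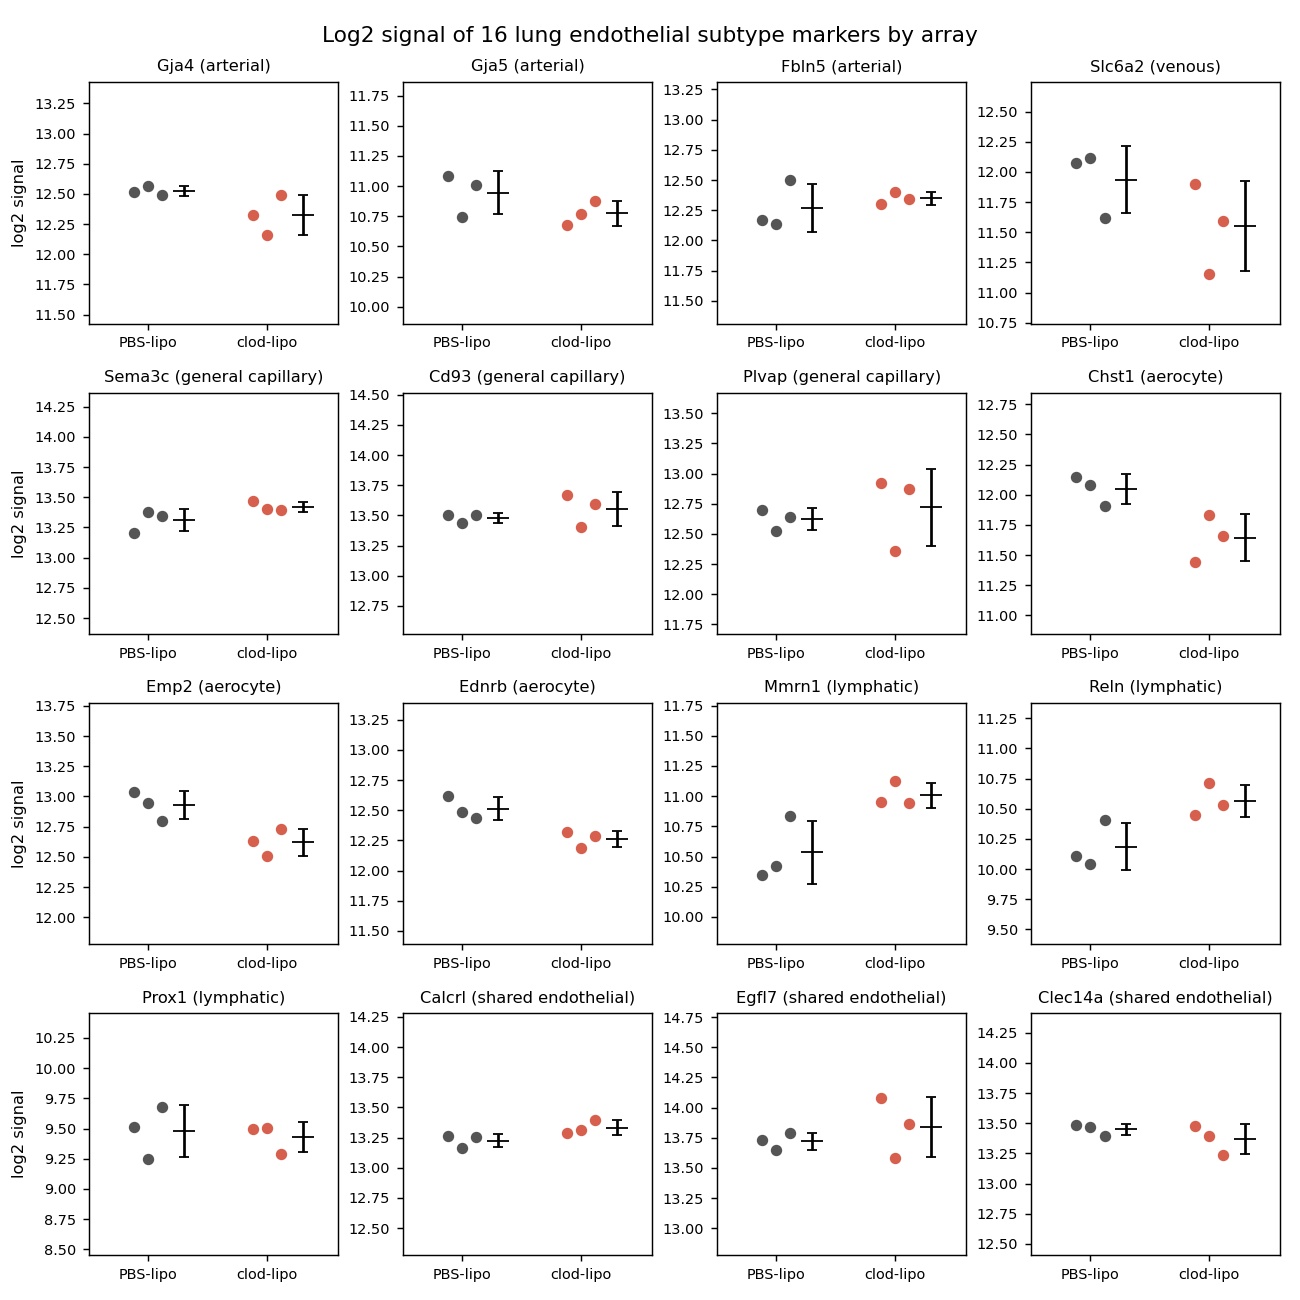
Log2 signal (y axis, 2 log2 units in each panel) of 16 markers by treatment (x axis, 3 arrays each), with a dot for each array and black marks for mean ± SD. Chst1, Emp2 and Ednrb show lower dots and Mmrn1 and Reln higher dots after clodronate without overlap, while Prox1, Fbln5 and Clec14a show mixed ones.

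Shared endothelial markers differed little, with 9 of 9 intervals within 0.5 of zero, differences from -0.079 to 0.12 and a median of -0.010. Calcrl, the receptor for calcitonin gene-related peptide and adrenomedullin, had 13.26, 13.16 and 13.25 in PBS-liposome samples and 13.29, 13.31 and 13.40 in clodronate-liposome samples. The groups did not overlap, with a gap smaller than the SD of either, and the difference was 0.11 (SE 0.092, adjusted p = 0.757). Its partner Ramp2, which turns Calcrl into an adrenomedullin receptor, differed by -0.012 (SE 0.097).

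Egfl7, a secreted protein of vessel walls, gave 0.12 (SE 0.14), and Clec14a, a C-type lectin-like receptor of angiogenic endothelium, gave -0.079 (SE 0.10), both with overlapping groups. Emcn, the sialomucin endomucin of capillaries and veins, differed by 0.059, Robo4, a roundabout receptor that steadies endothelial barriers, by 0.048, and Mmrn2, a matrix ligand of Clec14a and Cd93, by -0.077. Ecscr, a regulator of endothelial migration, differed by -0.010, and Rasip1, a Ras-interacting protein needed for vessel lumens, by -0.069.

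ECs use transcription factors of the ETS family widely, and the letters CAGGAAG, 1 form of the ETS site, were searched on both strands of the 250 bases before and 50 after annotated gene starts in RefSeq for build GRCm38.p6. Promoters were given for 25 of the 33 genes, 30 promoters in all. The letters were found in 8 of the 30 (26.7%) and in 13.3% of all 32851 promoters, in the genes Calcrl, Chst1, Egfl7, Emcn, Fbln5, Rasip1 and Robo4. Other motifs were rarer, with the RBPJ letters GTGGGAA in 1 promoter, that of Fibin (6.38% of all promoters), and the SOX letters AACAAAG in 2, those of Bmx and Pdpn (5.85% of all promoters). The arrays do not measure factor binding, and a match is a description of the letters alone. The 250 bases before the start are printed for Chst1, the marker with the most negative difference, and for the shared markers Calcrl, Emcn, Rasip1 and Robo4, with the ETS letters in capitals on whichever strand they lie, read 5′ to 3′ in the direction of the gene. The windows are chr2:92600867-92601116 (plus strand) for Chst1, chr2:84425267-84425516 (minus strand) for Calcrl, chr3:137340828-137341077 (plus strand) for Emcn, chr7:45627287-45627536 (plus strand) for Rasip1 and chr9:37401722-37401971 (plus strand) for Robo4.
Chst1: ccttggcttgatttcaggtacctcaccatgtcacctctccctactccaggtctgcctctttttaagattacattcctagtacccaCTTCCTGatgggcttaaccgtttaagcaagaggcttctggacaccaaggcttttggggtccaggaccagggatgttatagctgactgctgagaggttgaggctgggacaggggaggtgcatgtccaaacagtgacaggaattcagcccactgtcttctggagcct
Calcrl: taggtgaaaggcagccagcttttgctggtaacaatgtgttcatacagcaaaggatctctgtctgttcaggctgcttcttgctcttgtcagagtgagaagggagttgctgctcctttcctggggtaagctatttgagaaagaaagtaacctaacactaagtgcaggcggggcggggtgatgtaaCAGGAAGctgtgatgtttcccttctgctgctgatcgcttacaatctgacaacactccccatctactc
Emcn: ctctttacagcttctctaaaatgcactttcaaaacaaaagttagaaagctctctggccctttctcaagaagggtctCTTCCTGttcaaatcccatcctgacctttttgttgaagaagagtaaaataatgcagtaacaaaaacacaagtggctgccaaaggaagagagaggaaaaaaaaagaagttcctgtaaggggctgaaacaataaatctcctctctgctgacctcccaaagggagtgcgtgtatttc
Rasip1: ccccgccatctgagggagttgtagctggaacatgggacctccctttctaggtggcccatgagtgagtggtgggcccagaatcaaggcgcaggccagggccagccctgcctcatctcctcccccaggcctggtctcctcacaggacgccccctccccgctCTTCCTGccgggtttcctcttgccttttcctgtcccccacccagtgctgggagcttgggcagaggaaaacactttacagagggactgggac
Robo4: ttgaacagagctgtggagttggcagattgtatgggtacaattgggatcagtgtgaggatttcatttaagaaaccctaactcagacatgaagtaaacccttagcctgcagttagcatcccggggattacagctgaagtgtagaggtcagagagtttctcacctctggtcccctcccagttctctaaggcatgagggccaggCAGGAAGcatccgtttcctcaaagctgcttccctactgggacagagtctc

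The capitals start 165 bases before the start of Chst1, 67 before that of Calcrl, 174 before that of Emcn, 91 before that of Rasip1 and 50 before that of Robo4. Ednrb, Emp2, Mmrn1, Reln, Sema3c and Gja4, the other markers whose groups did not overlap, held none of the 3 motifs in the windows given.

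Across arrays, the markers did not move as one block. The second clodronate-liposome sample gave the lowest value of 16 of the 31 markers and the first the highest value of 10. Over all 18193 genes the second sample was lowest for 19.3%, and over the 1801 genes with a mean signal above 12, a range that held 20 of the 31 markers, for 24.8%. It was also highest for 28.7% of those 1801 genes. The first clodronate-liposome sample was highest for 21.2% of all genes and for 22.9% of the 1801. The second clodronate-liposome sample also differed in control signals, with hybridization controls at 12.01 and an 18S signal at 12.33, where the other treated samples had hybridization controls at 11.71 and 18S signals reaching 13.01, while the PBS-liposome samples had 11.91 to 12.06 and 12.39 to 12.63. With the second sample as the only treated array, a fit in which the PBS-liposome arrays alone supply the spread, Chst1 stood at -0.21, Ednrb at -0.32, Emp2 at -0.42, Mmrn1 at 0.59 and Reln at 0.52. Without it, the same genes stood at -0.49, -0.21, -0.25, 0.41 and 0.30.

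**Figure D3:**
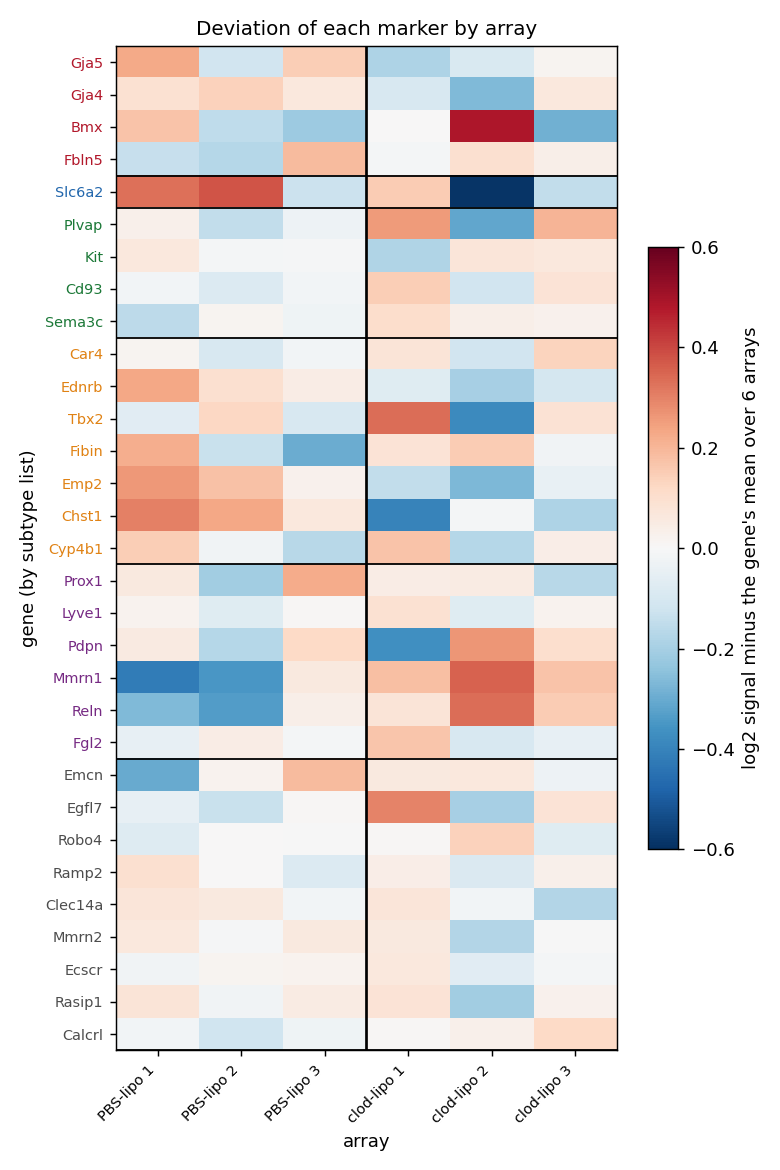
Deviation of each marker's log2 signal from its own mean over 6 arrays (colour scale, log2 units), with genes in rows grouped by subtype list and arrays in columns, PBS-liposome left of the black line. The second clodronate-liposome column holds the lowest value for 16 of 31 genes, and Mmrn1 and Reln are blue in the first 2 PBS-liposome columns and red after clodronate.

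Several markers, 17 of the 31, were covered by more than 1 probe set, and all 31 together by 61. None of the 61 passed the threshold, and the lowest adjusted p was 0.132. The signs of all probe sets of a gene matched for 8 of the 17 genes and differed for 9. Ednrb was lower by more on its dimmer probe sets, with -0.65 (SE 0.19, adjusted p = 0.249) and -0.60 (SE 0.13, adjusted p = 0.132), and on both the groups did not overlap. The other Emp2 probe sets gave -0.31 and -0.40, close to the brightest one.

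Mmrn1 and Reln each had a second probe set under the background level, with means of 5.98 and 6.34 and differences of -0.14 and -0.11, so that neither read above background. For Kit the second probe set gave -0.35 (SE 0.17) where the brightest gave -0.030, and for Calcrl the others gave -0.064 and 0.42. Differences of opposite sign were also found for Fbln5 (-0.15 on the second probe set), for Prox1 (0.16 and 0.24) and for Clec14a (0.029).

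**Figure D4:**
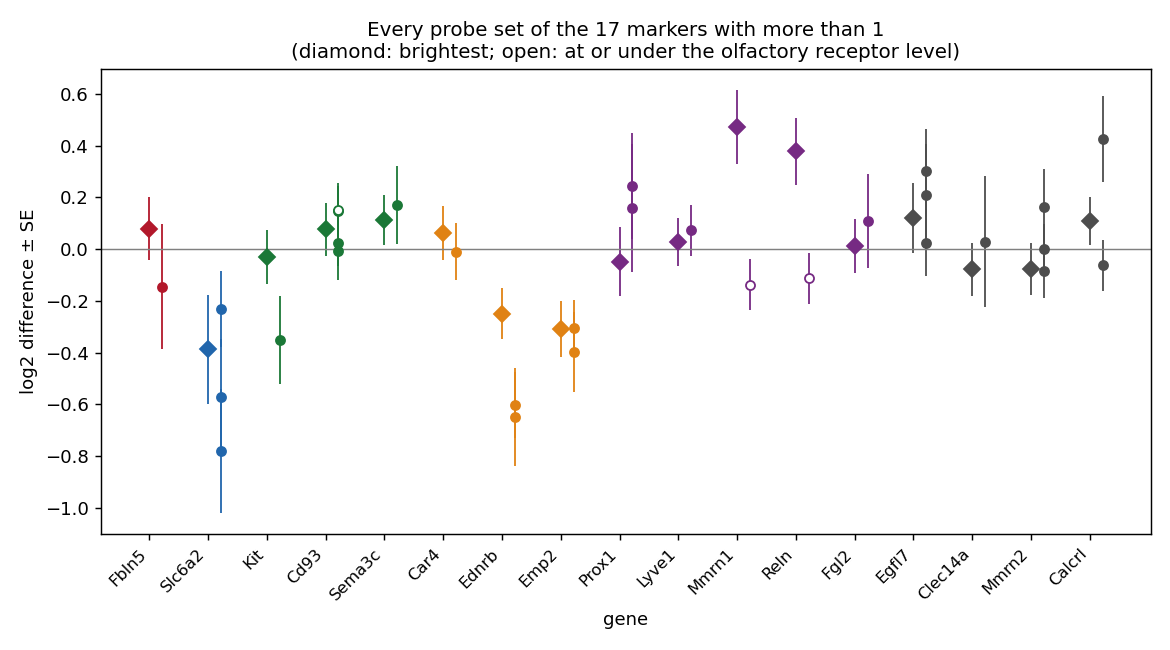
Log2 difference ± SE (y axis) of every probe set of the 17 markers with more than 1 (x axis), coloured by subtype list, with a diamond for the brightest, circles for the others and open circles at or under the olfactory receptor level. The probe sets of Slc6a2, Ednrb and Emp2 are all below zero, while those of Mmrn1 and Reln split between a measured value above zero and a background-level value below it.

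Other genes known from the same subtypes were examined beside the markers, 67 in all. Of these, 2 were called lower and none higher, where 0.238% of all probe sets were called lower and 0.0688% higher. The genes were listed with earlier results of these data known, so the count is no independent support. Both genes called belonged to the venous list of 10. Ackr1, the atypical chemokine receptor of venules, had 11.47, 11.34 and 11.31 in PBS-liposome samples and 10.01, 10.23 and 9.79 after clodronate. It fell by 1.36 (SE 0.13, adjusted p = 0.0144). Selp, the leukocyte-tethering P-selectin, had 11.73, 11.75 and 11.74 against 10.60, 11.04 and 10.48, and fell by 1.03 (SE 0.15, adjusted p = 0.0428). With 1 array left out in turn, Ackr1 ran from -1.47 to -1.25 and Selp from -1.20 to -0.92. Ackr1 then missed the threshold without any one of the PBS-liposome samples or without the first clodronate-liposome sample (adjusted p up to 0.0773), and Selp missed it in each case except without the second clodronate-liposome sample (adjusted p up to 0.162). Neither passed with the signal of the hybridization controls as a covariate, where Ackr1 stood at -1.23 (adjusted p = 0.140) and Selp at -0.82 (adjusted p = 0.183).

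Inflammatory signals are known to raise Selp in venules, and platelets hold the protein too. The 6 platelet markers had 5 differences below zero and 1 above, and the part of platelets in the Selp signal was not tested. The remaining 8 venous genes did not pass, with Vwf at 0.053 and Ephb4 at -0.0063. Nr2f2, the venous identity factor, stood at -0.21 (SE 0.10, adjusted p = 0.540), with groups that did not overlap. The venous list had 5 differences below zero and 5 above and a median of 0.0077, and Slc6a2 at -0.39 lay beside Bst1, a surface enzyme, at -0.38.

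Clu, the extracellular chaperone clusterin, had the most negative value among other aerocyte genes, with 12.67, 12.80 and 12.76 against 11.73, 12.08 and 12.03. Its groups lay far apart, but at -0.79 (SE 0.12, adjusted p = 0.0510) it did not pass, though it did with a filter on low signal (adjusted p = 0.0279) and on its most variable probe set (-1.10, adjusted p = 0.0155). None of the 67 genes, Clu included, passed with the hybridization covariate or the replicate block. The same held without any one of the PBS-liposome samples and without the first clodronate-liposome sample. Apln, the aerocyte ligand apelin, stood at 0.40 (adjusted p = 0.283), the opposite sign to Chst1, Emp2 and Ednrb, and the median of the 10 other aerocyte genes was -0.016. None of the other arterial, general capillary, lymphatic or shared genes passed, and their lists held values of both signs. The 10 other general capillary genes had 7 differences below zero and 3 above, a median of -0.025 and a range from Gpihbp1 at -0.15 to Adgrl3 at 0.41. The 13 other arterial genes had 7 below zero and 6 above, a median of -0.026 and a range from Mgp at -0.13 to Eln at 0.29. The 12 other lymphatic genes had 5 below zero and 7 above, a median of 0.039 and a range from Gja1 at -0.28 to Maf at 0.27. The 12 other shared genes had 6 on either side of zero, a median of 0.00064 and a range from Nos3, the endothelial nitric oxide synthase, at -0.42 to Cldn5, a tight junction protein, at 0.17.

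**Figure D5:**
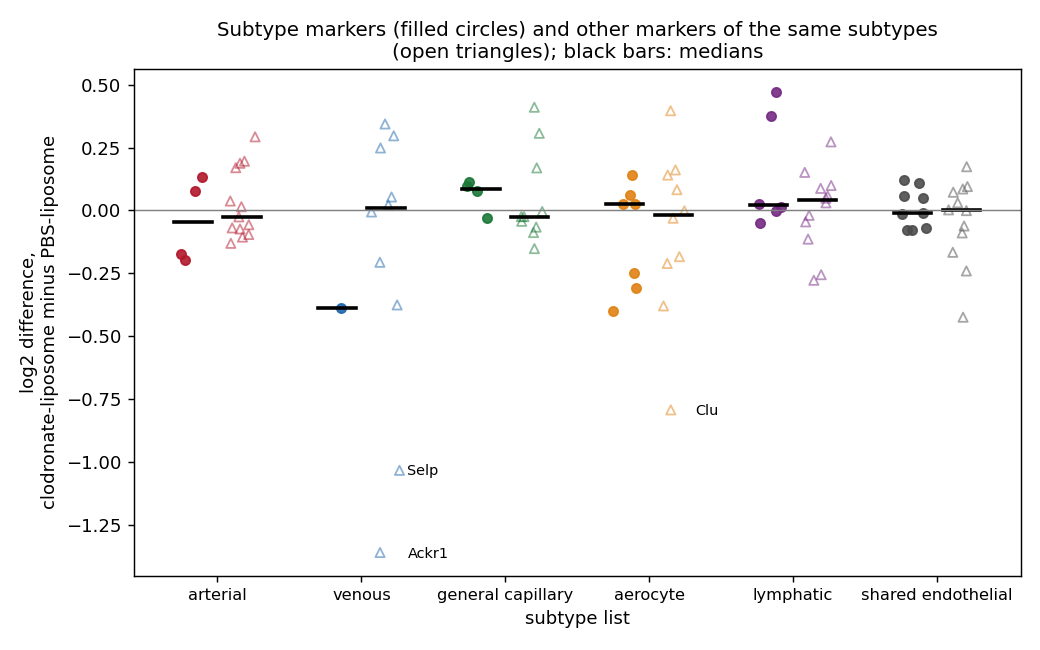
Log2 difference (y axis) of the 31 markers (filled circles) and of 67 other genes of the same subtypes (open triangles) by subtype list (x axis), with black bars for medians. Apart from the single venous marker, each list has a median close to zero, and Ackr1, Selp and Clu lie below all 31 markers.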

How the data were processed

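RNA of 6 sorted EC samples was profiled on Affymetrix mouse arrays, 1 array each. The deposited values are log2 signals that the authors made by robust multiarray averaging in Chipster, which corrects background, quantile-normalizes the arrays and summarizes the probes of each probe set, and which therefore removes overall differences in RNA content. They were used as deposited. Of 45101 probe sets, 64 controls were set aside. Symbols came from the platform annotation (34945 probe sets with 1 symbol, 932 with several, 9160 with none), which gave no probe coordinates. The members and gene lists were chosen with earlier results of these data known.

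Groups followed the liposome treatment in the labels, 3 arrays each. Two-sided differences came from limma 3.58.1, run in R 4.3.3 without covariates (lmFit, then eBayes, 4 residual and 3.90 prior degrees of freedom, no filter), as in the study's empirical Bayes comparison, with Benjamini-Hochberg adjustment over 45037 probe sets at 0.05. The number of arrays limits the precision, and p values measure only the spread between these samples. Values on every array are given for the 3 markers with the smallest p of each list, for any that passed, and for those without overlap that exceeded 0.5, with others by counts and ranges. Lists of other markers and of other cell types were described without a set test. The same fit was tested on simulated data. Alternatives covered filtering, normalization, the variance model, array weights, control-signal covariates, the replicate number as a block, other probe sets and each array left out in turn. The second clodronate-liposome array as the only treated array was added after the data had been seen. Scanner files were not used here.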

Additional observations from a re-analysis of the deposited data

How the results depend on the processing

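No marker passed the threshold in any of 17 other settings, where the lowest adjusted p of a marker was 0.145. The setting with the second clodronate-liposome sample alone takes its spread from the PBS-liposome arrays, and its lack of calls says nothing about stability. Gja5, Gja4, Slc6a2, Sema3c, Ednrb, Fibin, Emp2, Chst1, Mmrn1, Reln and Calcrl, 11 of the 31, kept their sign in all 17, and 20 changed sign in at least 1. The low-signal filter, centring on array medians, the replicate block and the trended, robust variance leave a difference as it is, so they could not change a sign. The probe-set settings could not either for Gja5, Gja4, Fibin and Chst1, which have no other probe set. The cause of these changes was not tested.

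The number of probe sets past the threshold, 138, was 244 with a filter on low signal, 248 with a trended and robust variance, 234 with array weights, 2 with hybridization controls as a covariate, 43 with the 3′ minus 5′ control signal as a covariate, 0 with the second clodronate-liposome sample as the only treated array (limma, 3964 at an unadjusted p under 0.05) and 6 to 73 with 1 array left out, below 138 whichever array it was. With the replicate number as a block it was 0 (limma, 5033 at an unadjusted p under 0.05), as were the other markers called (Ackr1 adjusted p = 0.0507, Selp adjusted p = 0.0870). The labels do not say whether the numbers pair the samples. Same-numbered deviations correlated at 0.075, 0.070 and 0.036, and each PBS-liposome sample correlated best with the clodronate-liposome sample of its own number. These values are small and do not decide whether the samples were paired. The other markers called, 2, were 0 with the hybridization covariate and with the second clodronate-liposome sample alone, 1 with the 3′ minus 5′ covariate, and 0 to 2 with 1 array left out, 0 without any one of the PBS-liposome samples or the first clodronate-liposome sample.

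With the most variable probe set of each gene, list medians were -0.16 (arterial), 0.13 (lymphatic) and 0.048 (shared), and Fbln5 stood at -0.15, Car4 at -0.0097, Prox1 at 0.16, Clec14a at 0.029 and Mmrn2 at 0.16. With the mean over a gene's probe sets, Fbln5 was -0.033 and Prox1 0.12. With array weights, Pdpn was 0.023, Fgl2 -0.0062 and Ramp2 0.014. With the hybridization covariate, the general capillary and aerocyte medians were -0.011 and -0.18, Plvap was -0.16, Kit 0.014, Cd93 -0.035, Car4 -0.050, Tbx2 -0.18, Cyp4b1 -0.099, Lyve1 -0.044, Pdpn 0.12, Fgl2 -0.036 and Egfl7 -0.064. With the second clodronate-liposome sample alone, medians were -0.011 (general capillary), -0.21 (aerocyte), 0.14 (lymphatic) and -0.072 (shared), Plvap was -0.26, Kit 0.056, Cd93 -0.079, Car4 -0.082, Tbx2 -0.37, Cyp4b1 -0.16, Prox1 0.024, Lyve1 -0.059, Pdpn 0.27, Fgl2 -0.091 and Egfl7 -0.14.

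With each array left out in turn, the aerocyte median ran from -0.13 to 0.10, Bmx from -0.079 to 0.31, Plvap from -0.0051 to 0.28, Kit from -0.074 to 0.051, Tbx2 from -0.13 to 0.22, Cyp4b1 from -0.052 to 0.12, Prox1 from -0.16 to 0.051, Lyve1 from -0.012 to 0.070, Pdpn from -0.13 to 0.18, Fgl2 from -0.067 to 0.063, Emcn from -0.077 to 0.17, Robo4 from -0.0079 to 0.096, Ramp2 from -0.056 to 0.032, Ecscr from -0.045 to 0.020 and Rasip1 from -0.13 to 0.018. With 3 arrays per group, no difference smaller than 0.64 was called on the array.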

Other observations

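Ccl21a, the lymphatic chemokine that draws dendritic cells and T cells to lymphatic vessels, could be read only through a probe set annotated also to Ccl21b, Ccl21c, Ccl21d and related predicted genes. That probe set had log2 signals of 11.48, 11.60 and 12.04 in PBS-liposome samples and 12.36, 11.80 and 12.23 in clodronate-liposome samples. The groups overlapped at the third PBS-liposome and second clodronate-liposome samples, and the difference was 0.42 (SE 0.19, limma adjusted p = 0.488). It was not counted among the 31 markers, because the signal cannot be assigned to 1 of these genes.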
